A study of Homo sapiens with 15 samples.

Results

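The mRNA of 9 genes of MHC class I antigen presentation was followed in LNCaP, a human prostate cancer cell line that responds to androgen: *HLA-B*, *HLA-C*, *HLA-E*, *HLA-F*, *B2M*, *TAP1*, *TAP2*, *TAPBP* and *ERAP1*. They were taken by symbol, and all 9 had a row among the 17272 genes of the expression table. Before treatment the cells were kept for 2 days in medium with charcoal-stripped serum, which is poor in steroids. They then received R1881, a synthetic androgen, at 1 nM for 22 h, together with either the solvent DMSO (the R1881 group, 10 libraries) or 2 µM enzalutamide, an antiandrogen (the R1881 + enzalutamide group, 5 libraries). Both groups therefore received androgen, no library of cells without R1881 was analysed here, and all came from a single cell line in culture. The comparison asks what this antiandrogen did to these genes under androgen stimulation.

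MHC class I molecules show short peptides from inside the cell to CD8+ T cells. Each holds a polymorphic heavy chain, encoded by the HLA genes, and the invariant light chain beta-2-microglobulin, encoded by *B2M*, without which most heavy chains do not leave the endoplasmic reticulum. Proteasomes cut proteins into peptides, the TAP1-TAP2 transporter carries the peptides into the endoplasmic reticulum, *ERAP1* trims their amino ends, and tapasin (*TAPBP*) holds the empty class I molecule at the transporter until a peptide fits. In many cells interferons raise these genes together, through the factor *IRF1* and the coactivator *NLRC5*. NF-kB also acts on class I promoters.

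Values are given as reads scaled to library size (CPM). The libraries held 15830745 to 25416052 reads over the listed genes. The deposited CPM columns summed to 1053406 to 1078567 in the R1881 group and to 985580 to 1008992 with enzalutamide, so fold changes are also given with every library total set to 1000000. The androgen-induced genes *KLK3*, *KLK2*, *TMPRSS2* and *FKBP5* served as a check of the treatment, and all 4 fell with enzalutamide, with log2 fold changes of -3.55, -4.87, -3.56 and -4.99. All 9 LNCaP marker genes had rows, among them *KLK3* and *FOLH1*. Of these 4 rose and 5 fell, and their summed level was 7187 to 8349 CPM in the R1881 group and 3699 to 3815 CPM with enzalutamide. Of 11 leukocyte markers none had a row. Of 8 markers of fibroblasts and basal cells 3 had rows, and their summed level was 7.16 to 11.6 CPM in the R1881 group and 19.8 to 25.4 CPM with enzalutamide. Most of that gap lay in *COL3A1*, a collagen gene, at 1.84 and 12 CPM on average. *COL1A1* averaged 6.03 and 9.96 CPM, while the basal marker *KRT14* went the other way, at 1.02 and 0.1 CPM. The part of these transcripts in the results below was not tested.

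Enzalutamide was accompanied by a split within the class I genes. The light chain gene *B2M* fell by more than 2-fold, and 5 of the other 8 genes rose: the heavy chain genes *HLA-B* and *HLA-E*, the transporter subunit *TAP1*, tapasin and the trimming enzyme *ERAP1*. *HLA-C*, *HLA-F* and *TAP2* did not pass the test. The median log2 fold change of the 9 genes was 0.23, against -0.01 over all genes tested. Calls rest on limma with Benjamini-Hochberg adjusted p under 0.05 on log2(CPM + 0.5), over 17046 genes with a mean of at least 0.5 CPM, a filter that all 9 passed. Of those genes 62.5% were called, 29.8% higher and 32.7% lower with enzalutamide, so a call by itself does not set a class I gene apart. The balance of directions rests on the scaling: 5083 genes were higher and 5577 lower as deposited, and 6641 higher and 4288 lower with library totals set to 1000000. Under that scaling the median of all genes was 0.075 and that of the 9 class I genes 0.33, with 6 called higher (*HLA-F* added) and 1 lower. The libraries of the 2 groups did not overlap for 37.2% of genes, and for 4 of the 9 class I genes. In bulk RNA, fewer cells expressing a gene and less RNA per cell cannot be told apart.

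**Figure D1:**
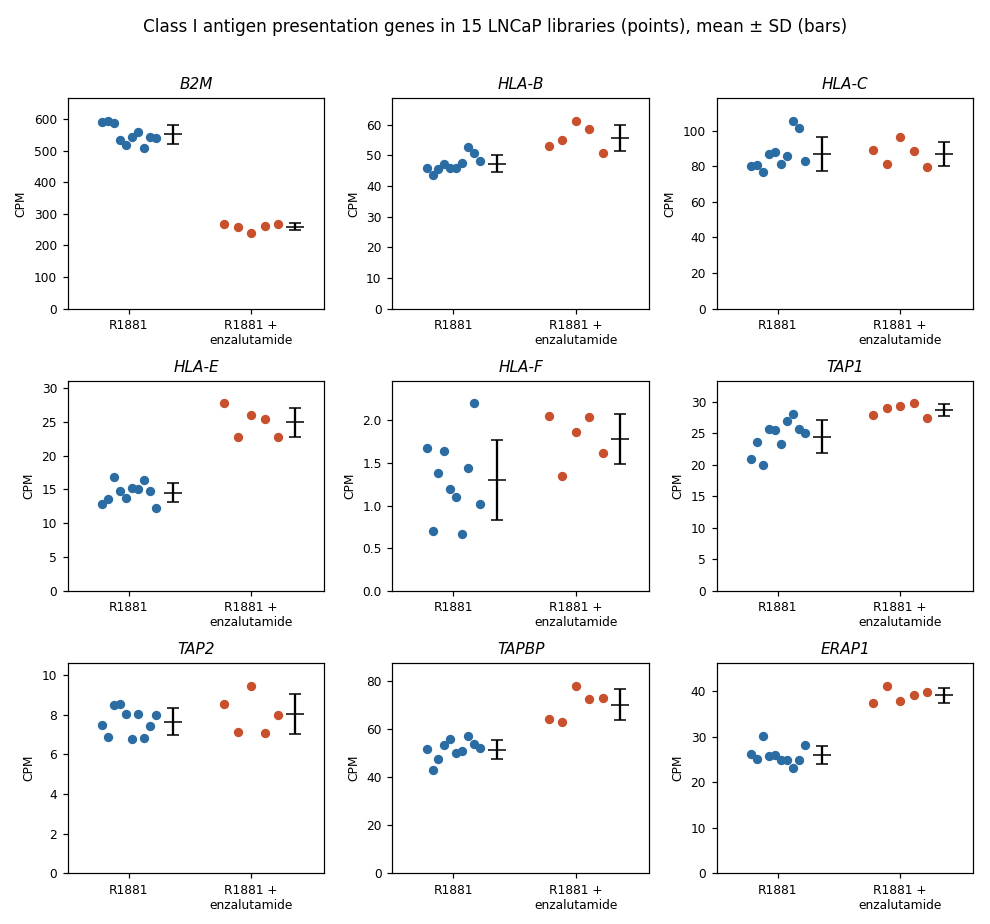
Level of each class I gene (CPM, linear axis from 0) in the 10 R1881 libraries (blue points) and the 5 R1881 + enzalutamide libraries (red points), with the group mean and SD as black bars. B2M lies between 509 and 595 CPM with R1881 and between 241 and 270 CPM with enzalutamide, HLA-E, TAPBP and ERAP1 lie higher with enzalutamide with no overlap, and the points of HLA-C, HLA-F and TAP2 overlap.

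*B2M* (chromosome 15, 44711358 to 44718851, plus strand, GRCh38, 4 exons in the canonical transcript) was the most abundant of the 9 genes. The R1881 libraries ranged from 509 to 595 CPM, with a median of 544. The 5 enzalutamide libraries held 269, 258, 241, 263 and 270 CPM, all below the lowest R1881 library, a separation that 20.1% of all genes showed in this direction. The mean went from 553 ± 30.7 (SD, n = 10) to 260 ± 11.8 CPM (SD, n = 5), and the median decreased by 51.6%. The log2 fold change was -1.09 (SE 0.040, 95% interval -1.17 to -1.0, limma adjusted p = 1.49e-15), and an exact permutation test, two-sided and with 3003 regroupings, gave p = 0.000333, the smallest it can give. A call of at least 2-fold lower was met by 4.19% of the genes tested, *B2M* among them, and its fold change held rank 612 from the lowest of 17046. With library totals set to 1000000 the *B2M* value was -0.99. These values rest on 5174 to 13411 reads per library. Class I promoters are known for interferon-responsive and NF-kB elements and for a module of X and Y boxes bound by the *NLRC5* complex. For *B2M*, the 250 bases upstream of the start (RefSeq, GRCh38.p14, chr15:44711267-44711516, plus strand) are printed with motif matches in capitals.
B2M: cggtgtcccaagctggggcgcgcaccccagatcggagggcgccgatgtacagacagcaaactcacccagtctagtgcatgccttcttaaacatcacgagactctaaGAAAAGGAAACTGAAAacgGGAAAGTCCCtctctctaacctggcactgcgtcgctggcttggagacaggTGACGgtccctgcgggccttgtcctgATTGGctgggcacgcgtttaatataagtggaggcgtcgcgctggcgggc
The capitals mark, 5′ to 3′, 2 overlapping matches to the interferon-type repeat (GAAA, any 2 bases, GAAA), from base -144 to -129 before the start, a match to the NF-kB consensus, the X2-box core TGACG and the Y-box core CCAAT. The NF-kB and Y-box matches are on the other strand. Both strands were searched in 35116 promoter windows of the same length, of which 3.02% held the interferon-type repeat, 9.96% the NF-kB consensus, 21.2% TGACG and 32% CCAAT. Windows were found for 8 of the 9 genes and not for *HLA-E*. A full androgen response element (AGAACA, any 3 bases, TGTTCT) occurred in 0 of the 8 windows and in 0.00285% of all, and its AGAACA arm in 0 of 8 and in 12.4% of all. A match describes the letters only, not a bound site.

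The heavy chain genes, which encode the peptide-binding chain, did not fall with the light chain gene: of 4, 2 rose and 2 did not pass the test. *HLA-B* and *HLA-C* encode classical heavy chains that present to T cells, *HLA-E* encodes a non-classical chain read mainly by the NKG2A receptor of natural killer cells, and *HLA-F* a non-classical chain of low abundance. *HLA-B* (chromosome 6, 31353872 to 31367067, minus strand) ranged from 43.7 to 52.7 CPM with R1881, with a median of 46.5, and held 52.9, 55.0, 61.2, 58.5 and 50.6 CPM with enzalutamide. The groups overlapped, since the highest R1881 library lay above the lowest enzalutamide library. The mean rose from 47.3 ± 2.67 (SD, n = 10) to 55.6 ± 4.26 CPM (SD, n = 5), a log2 fold change of 0.23 (SE 0.049, limma adjusted p = 0.00034, exact permutation p = 0.00133).

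*HLA-C* (chromosome 6, 31268749 to 31272130, minus strand), close to *HLA-B* in the class I region, had the same mean in both groups. The R1881 libraries ranged from 76.7 to 105 CPM, with a median of 84.6, and the enzalutamide libraries held 88.9, 81.1, 96.6, 88.4 and 79.5 CPM. All enzalutamide values lay inside the R1881 range. The means were 86.9 ± 9.38 (SD, n = 10) and 86.9 ± 6.86 CPM (SD, n = 5), and the log2 fold change was 0.00 (95% interval -0.14 to 0.14, limma adjusted p = 0.974). The sign of this value changed with the processing. The promoters of *HLA-B* and *HLA-C* are shown together because the genes lie close together with different fold changes, a difference tested below as a ratio. The windows were 89.0% identical over the aligned bases, against 44.5% for *HLA-B* and *B2M*. Both windows lie on the minus strand (RefSeq, GRCh38.p14, chr6:31357180-31357429 for *HLA-B* and chr6:31272093-31272342 for *HLA-C*).
HLA-B: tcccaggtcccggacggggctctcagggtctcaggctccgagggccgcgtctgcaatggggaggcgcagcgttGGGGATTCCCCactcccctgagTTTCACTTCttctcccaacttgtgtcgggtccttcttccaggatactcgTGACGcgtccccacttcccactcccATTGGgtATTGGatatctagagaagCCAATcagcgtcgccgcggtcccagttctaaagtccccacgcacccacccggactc
HLA-C: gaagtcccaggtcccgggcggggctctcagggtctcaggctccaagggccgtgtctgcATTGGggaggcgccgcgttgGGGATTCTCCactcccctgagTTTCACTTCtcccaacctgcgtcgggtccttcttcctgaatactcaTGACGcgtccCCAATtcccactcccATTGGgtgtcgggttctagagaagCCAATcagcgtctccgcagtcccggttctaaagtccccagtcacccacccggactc
In both, the capitals mark the NF-kB consensus, the shorter repeat GAANNGAAA on the other strand, TGACG and several CCAAT boxes on either strand, and in *HLA-B* 2 NF-kB matches overlap. GAANNGAAA occurred in 6.56% of all windows. *HLA-B* holds 3 CCAAT boxes and *HLA-C* 4, and in both a CCAAT box lies at bases -56 to -52.

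*HLA-E* (chromosome 6, 30489509 to 30494194, plus strand) had the largest log2 fold change among the 5 genes that rose. Its level ranged from 12.2 to 16.8 CPM with R1881, with a median of 14.8, and the enzalutamide libraries held 27.7, 22.8, 26, 25.4 and 22.7 CPM. Every enzalutamide library lay above every R1881 library, which held for 17.1% of all genes. The mean rose from 14.5 ± 1.48 (SD, n = 10) to 24.9 ± 2.18 CPM (SD, n = 5), a log2 fold change of 0.76 (SE 0.072, limma adjusted p = 9.85e-09, exact permutation p = 0.000333).

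*HLA-F* (chromosome 6, 29722775 to 29738528, plus strand) was close to the lower end of detection, with 15 to 52 reads per library. It ranged from 0.663 to 2.20 CPM with R1881, with a median of 1.28, and held 2.05, 1.35, 1.86, 2.04 and 1.62 CPM with enzalutamide, so that the groups overlapped. The means were 1.30 ± 0.470 CPM (SD, n = 10) and 1.78 ± 0.298 CPM (SD, n = 5), with a log2 fold change of 0.38 (SE 0.16, 95% interval 0.03 to 0.72, limma adjusted p = 0.0529). This value lay just outside the threshold and passed it under several other settings. It also passed when any of 5 libraries was left out by itself, R1881 51, 54, 73 or 74 or enzalutamide 82, with limma adjusted p of 0.0392, 0.0416, 0.0431, 0.0136 and 0.0348. *HLA-F* overlaps *HLA-F-AS1* on the other strand, as *TAP1* does *PSMB8-AS1* and *ERAP1* does *CAST*, with the strand setting of the counting not given in the sources used here.

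Reads of the class I genes can be hard to place. Within the primary chromosomes of GRCh38, 91.9 to 97.7% of the 50-base windows of the 4 HLA transcripts and 100% of those of *B2M* occurred in a single place, but with the alternate contigs included the shares were 22.7% for *HLA-B*, 6.9% for *HLA-C*, 0% for *HLA-E*, 4.3% for *HLA-F* and 6.5% for *B2M*. For *TAP1*, *TAP2* and *TAPBP* the shares fell from 98.6%, 99.4% and 87.4% to 0%, 1.0% and 0%, and for *ERAP1* both were 100%. The index contents are likewise not given, and the HLA alleles of LNCaP can differ from the reference.

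The transporter genes encode the 2 subunits of the peptide pump and lie near each other in the class II region of chromosome 6. *TAP1* (32845209 to 32853816, minus strand) ranged from 19.9 to 28.1 CPM with R1881, with a median of 25.2, and held 28, 29.0, 29.4, 29.8 and 27.4 CPM with enzalutamide. All but 1 of the R1881 libraries lay below the enzalutamide group. The mean rose from 24.4 ± 2.58 (SD, n = 10) to 28.7 ± 0.98 CPM (SD, n = 5), a log2 fold change of 0.23 (SE 0.067, limma adjusted p = 0.00484, exact permutation p = 0.00766). *TAP2* (32821833 to 32838739, minus strand) held 6.77 to 8.56 CPM with R1881, with a median of 7.74, and 8.55, 7.12, 9.49, 7.10 and 7.99 CPM with enzalutamide. Its groups overlapped, and the log2 fold change of 0.07 (95% interval -0.10 to 0.23, limma adjusted p = 0.484) did not pass the test. The ratio of *TAP1* to *TAP2* within a library was not shown to differ, at 322 ± 46.8 CPM of *TAP1* per 100 CPM of *TAP2* (SD, n = 10) and 361 ± 49.0 (SD, n = 5), with an exact permutation p of 0.157.

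Tapasin and *ERAP1*, which act on the class I molecule and its peptide inside the endoplasmic reticulum, rose without overlap between the groups. *TAPBP* (chromosome 6, 33299694 to 33314284, minus strand) ranged from 42.8 to 56.9 CPM with R1881, with a median of 51.7, and held 64, 62.8, 78, 72.3 and 72.9 CPM with enzalutamide. Its mean rose from 51.4 ± 4.04 (SD, n = 10) to 70.0 ± 6.43 CPM (SD, n = 5), a log2 fold change of 0.44 (SE 0.061, limma adjusted p = 2.08e-06, exact permutation p = 0.000333). *ERAP1* (chromosome 5, 96760810 to 96808100, minus strand) was the only member outside chromosome 6 besides *B2M*. It ranged from 23.2 to 30.1 CPM with R1881, with a median of 25.4, and held 37.4, 41.3, 37.8, 39.2 and 39.7 CPM with enzalutamide. Its mean rose from 25.9 ± 1.97 (SD, n = 10) to 39.1 ± 1.58 CPM (SD, n = 5), a log2 fold change of 0.59 (SE 0.053, limma adjusted p = 4.23e-09, exact permutation p = 0.000333). The 2 promoters (RefSeq, GRCh38.p14, minus strand, chr6:33314079-33314328 for *TAPBP* and chr5:96807946-96808195 for *ERAP1*) are shown because both genes rose without overlap.
TAPBP: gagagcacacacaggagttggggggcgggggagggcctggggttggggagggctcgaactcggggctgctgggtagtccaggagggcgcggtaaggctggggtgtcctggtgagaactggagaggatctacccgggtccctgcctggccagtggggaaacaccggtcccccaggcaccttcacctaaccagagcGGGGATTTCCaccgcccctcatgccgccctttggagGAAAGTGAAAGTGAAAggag
ERAP1: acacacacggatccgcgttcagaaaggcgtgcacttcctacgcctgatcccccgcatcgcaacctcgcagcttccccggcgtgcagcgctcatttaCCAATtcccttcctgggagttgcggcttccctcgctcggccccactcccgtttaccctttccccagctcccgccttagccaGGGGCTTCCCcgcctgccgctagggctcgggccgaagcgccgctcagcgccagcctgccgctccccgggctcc
In *TAPBP* the capitals mark an NF-kB consensus match and 2 overlapping interferon-type repeats close to the start, and in *ERAP1* a CCAAT box and an NF-kB consensus match, with no interferon-type repeat. Over the 8 windows, the interferon-type repeat occurred in 5 (*B2M*, *HLA-F*, *TAP1*, *TAP2* and *TAPBP*), the NF-kB consensus in 6 and TGACG in 4. Genes that rose, fell or did not pass the test were among those with this repeat, and likewise for the NF-kB consensus.

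The balance of heavy to light chain mRNA within a library does not depend on how libraries were scaled. *HLA-B* stood at 8.59 ± 0.879 CPM per 100 CPM of *B2M* (SD, n = 10, range 7.34 to 10.4) with R1881 and at 21.5 ± 2.58 (SD, n = 5, range 18.8 to 25.4) with enzalutamide. The log2 ratio, here and below taken with 0.5 CPM added to both genes, rose by 1.32 (exact permutation p = 0.000333, adjusted over the 5 ratios computed 0.000833), and the groups did not overlap. *HLA-C* fell relative to *HLA-B*, from 184 ± 10.8 (range 168.8 to 200.2) to 156 ± 7.91 CPM per 100 CPM of *HLA-B* (range 147.4 to 168.2). The groups again did not overlap, but here their ranges nearly touched (log2 difference -0.23, exact permutation p = 0.000333, adjusted 0.000833).

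**Figure D2:**
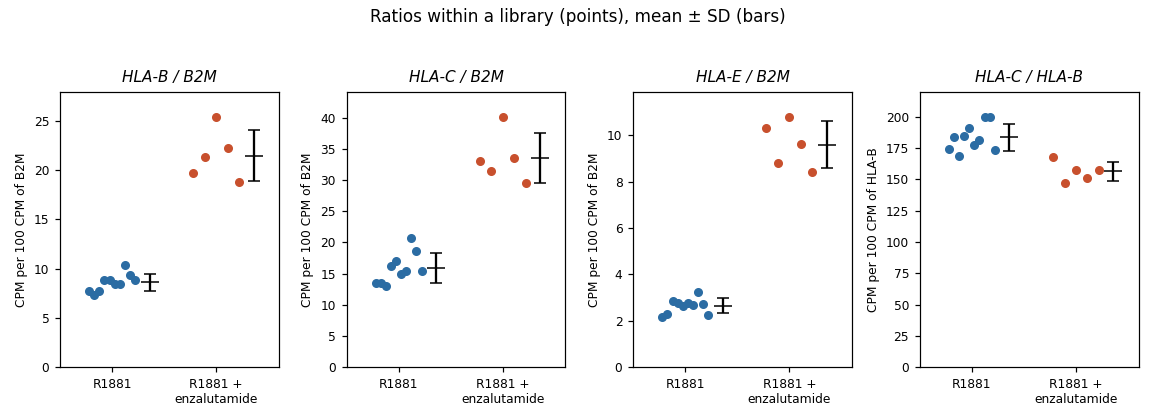
Ratios of pairs of class I genes within each library (CPM of the first gene per 100 CPM of the second, linear axis from 0) in the R1881 (blue, n = 10) and R1881 + enzalutamide libraries (red, n = 5), with mean and SD as bars. HLA-B per 100 CPM of B2M lies at 7.34 to 10.4 with R1881 and at 18.8 to 25.4 with enzalutamide, and HLA-C per 100 CPM of HLA-B lies lower with enzalutamide.

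Levels of different genes were compared per kilobase of the canonical transcript. In the R1881 group the order was *B2M* (586 CPM per kb), *HLA-C* (56.4), *HLA-B* (30.8), *TAPBP* (14.9), *TAP1* (9.10), *HLA-E* (5.71), *ERAP1* (5.36), *TAP2* (1.36) and *HLA-F* (0.879). The order was the same with enzalutamide, at 276, 56.4, 36.2, 20.3, 10.7, 9.78, 8.07, 1.43 and 1.2 CPM per kb. Among neighbours, the ranges of *HLA-E* and *ERAP1* and those of *TAP2* and *HLA-F* overlapped with R1881, and those of *TAP1* and *HLA-E* and of *TAP2* and *HLA-F* overlapped with enzalutamide. *B2M* thus remained the most abundant class I transcript per length in every library of both groups.

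In the labels the R1881 libraries carry the numbers 51 to 55 and 71 to 75, those with enzalutamide 81 to 85. What the numbers stand for is left unsaid, and no number series holds both treatments, so that the series and the treatment cannot be told apart. Between the 2 R1881 series 3.17% of all genes were called and 0 of the 9 class I genes. *B2M* averaged 566 ± 36.6 CPM in libraries 51 to 55 and 540 ± 19.1 CPM in 71 to 75 (SD, n = 5 each). Set against each series alone, the *B2M* log2 fold change was -1.12 and -1.05, that of *HLA-E* 0.78 and 0.74, that of *ERAP1* 0.55 and 0.62 and that of *TAPBP* 0.48 and 0.41. The values were 0.28 and 0.18 for *HLA-B*, 0.31 and 0.15 for *TAP1*, 0.35 and 0.40 for *HLA-F*, 0.02 and 0.11 for *TAP2* and 0.07 and -0.07 for *HLA-C*.

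Libraries also differed in how their values followed the GC content of the transcripts. The rank correlation over genes between GC content and a library's deviation from its group mean exceeded 0.5 in size in 6 libraries, R1881 51, 52, 53, 73 and 74 and enzalutamide 83. Over the 15 libraries, the deviation of *HLA-C* from its group mean followed this correlation with r = 0.95, that of *HLA-B* with 0.86 and that of *B2M* with -0.80, given as a description, since the points share their libraries' depth and base composition. The transcripts of *HLA-C* and *HLA-B* are rich in GC (60.1% and 58.9%), that of *B2M* is not (39.1%), and the median gene has 47.9%. After removal of the GC trend from each library, the *B2M* log2 fold change was -1.09, that of *HLA-B* 0.27, *HLA-C* 0.04, *HLA-E* 0.78, *HLA-F* 0.41, *TAP1* 0.27, *TAP2* 0.05, *TAPBP* 0.48 and *ERAP1* 0.58. By the rule of likeness used, the genes whose deviations ran closest to the mean deviation of the 8 class I genes of at least 5 CPM were *RRP9*, *RP11-12M9.3*, *ZER1*, *LRRC41* and *GSN* (r = 0.944, 0.932, 0.931, 0.931 and 0.93 over 15 libraries, out of 12156 genes). The GC content of the 4 of them that have a value was 55.6 to 60.7%.

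**Figure D3:**
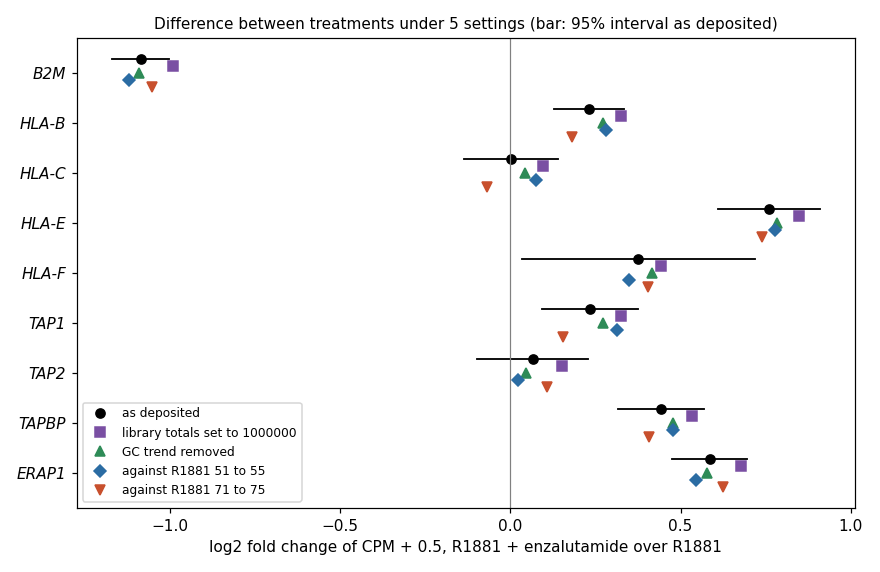
Log2 fold change of each class I gene, R1881 + enzalutamide over R1881, as deposited (black points, with the 95% interval as a bar), with library totals set to 1000000 (purple squares), after removal of the GC trend (green triangles) and against either R1881 series alone (blue and red markers). B2M stays between -1.12 and -0.99, HLA-E, TAPBP and ERAP1 stay above 0, and the markers of HLA-C lie on both sides of 0.

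Other genes were read from the same fit in 9 lists by role, among them a list of class II genes. Here and below the genes of all 9 lists are called pathway genes. Of 82 genes 67 were tested, of which 23 rose (34.3%), 20 fell (29.9%) and 24 did not pass, with a median log2 fold change of 0.05. These shares lie near the 29.8% and 32.7% of all genes. With library totals set to 1000000 the counts were 32 higher (47.8%) and 16 lower (23.9%), against 39% and 25.2% of all genes. The class II list gave 4 of the tested genes, 3 higher and 1 lower under either scaling. The counts of tested and higher genes include *HLA-DPA1*, which met the 0.5 CPM filter only through the group where it is high. Several genes of protein folding and peptide loading in the endoplasmic reticulum moved the other way from tapasin. Of 10 loading and trimming partners 0 rose, 7 fell and 3 did not pass (median -0.27). The fallen genes included *PDIA3* (ERp57, the partner of tapasin) at -0.35. Among them were also genes of protein folding in general, such as *UGGT1*, which checks glycoprotein folding, at -0.34 and *HSPA5* (BiP) at -0.32. The trimming enzyme *ERAP2*, at 0.13, and the tapasin relative *TAPBPL*, at 0.04, did not pass.

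Among the proteasome genes, the constitutive catalytic subunits *PSMB5* and *PSMB6* fell, with log2 fold changes of -0.33 and -0.22. The remaining subunit of the 3, *PSMB7*, was at -0.07 with overlapping groups and a limma adjusted p of 0.0491, and with library totals set to 1000000 it was at 0.02 and not called. Of the 5 genes of the immunoproteasome and the PA28 activator tested, 2 rose, 1 fell and 2 did not pass. *PSMB8*, an inducible catalytic subunit, rose from 0.506 ± 0.253 (SD, n = 10) to 0.891 ± 0.249 CPM (SD, n = 5), a log2 fold change of 0.48 (limma adjusted p = 0.0153) at 4 to 25 reads per library. *PSMB10* was at -0.005 on that scale and did not pass, and *PSMB9* was not analysed here. With 0.5 CPM added to both genes, the log2 ratio of *PSMB8* to the subunit it replaces, *PSMB5*, rose by 0.82 (exact permutation p = 0.000999, adjusted 0.00167), with overlap between the groups. That of *PSMB10* to *PSMB7*, taken in the same way, differed by 0.07 (exact permutation p = 0.75). At the low level of *PSMB8* the added 0.5 CPM shrinks the log2 difference. Without it, *PSMB8* stood at 0.346 ± 0.171 CPM per 100 CPM of *PSMB5* (SD, n = 10) and at 0.778 ± 0.245 with enzalutamide (SD, n = 5). Of 6 cytosolic peptidases 1 rose (*NPEPPS*, 0.25), 2 fell (*NRDC*, -0.53, and *THOP1*, -0.52) and 3 did not pass, against 4 higher and 2 lower with library totals set to 1000000. Among all genes 29.8% were higher and 32.7% lower as deposited, and 39% and 25.2% with those totals.

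Among the genes that control class I transcription, *NLRC5*, *IRF1* and *NFKB1* rose. Of 13 transcriptional regulators of class I genes 5 rose (38.5%), 2 fell (15.4%) and 6 did not pass (median 0.035), against 29.8% and 32.7% of all genes. With library totals set to 1000000 the counts were 6 higher (46.2%) and 0 lower, against 39% and 25.2% of all genes. *NLRC5*, the class I coactivator, rose from 0.892 ± 0.119 (SD, n = 10) to 2.24 ± 0.244 CPM (SD, n = 5) without overlap, a log2 fold change of 0.98 (limma adjusted p = 7.76e-09). Such a separation in this direction held for 17.1% of all genes. *IRF1* rose from 2.52 ± 0.431 to 5.66 ± 0.353 CPM (1.04) and *NFKB1*, which encodes an NF-kB subunit, from 44.5 ± 2.67 to 109 ± 5.09 CPM (1.28), both without overlap (here and below ± is the SD over 10 and 5 libraries, and values in brackets are log2 fold changes). *RELA*, the other main NF-kB subunit, at -0.01, did not pass. *IRF2*, at -0.14 (limma adjusted p = 0.0498), fell as deposited and was not called with library totals set to 1000000, at -0.05. Of the interferon gamma receptor route, 4 of 6 genes had a row, of which *IFNGR2* (0.44) and *JAK2* (0.35) rose and *IFNGR1* fell (-0.25). *JAK1*, a kinase of that receptor, stood at 7.17 ± 0.792 and 6.49 ± 0.628 CPM (log2 fold change -0.13, limma adjusted p = 0.163).

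Of 8 genes that repress class I transcription or turn the proteins over, 3 rose (37.5%), 2 fell (25%) and 3 did not pass, against 29.8% and 32.7% of all genes. With library totals set to 1000000, 5 were higher (62.5%) and 1 lower (12.5%), against 39% and 25.2% of all genes. *SUSD6* and *WWP2*, parts of a complex that directs class I molecules to degradation, rose from 34.4 ± 1.52 to 94.3 ± 4.06 CPM (1.44) and from 55.7 ± 4.45 to 87.6 ± 5.07 CPM (0.65). *TMEM127*, a further part of that complex, was at 0.005 (limma adjusted p = 0.904) and did not pass. *EZH2*, the catalytic subunit of the Polycomb complex PRC2, fell by 0.61 on the log2 scale. The PRC2 genes *EED*, at -0.10, and *SUZ12*, at 0.08, did not pass, and *SUZ12* was called higher, at 0.17, with library totals set to 1000000.

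Of 18 other class I and class I-like genes 14 had a row, of which 7 rose (50%), 1 fell (7.1%) and 6 did not pass. Among all genes tested 29.8% were higher and 32.7% lower. *HFE*, which regulates iron uptake and binds the light chain, rose from 3.02 ± 0.560 to 8.09 ± 0.559 CPM (1.30), *MR1*, which presents microbial metabolites to MAIT cells, from 12.9 ± 0.726 to 29.5 ± 2.28 CPM (1.16), and *ULBP1*, a ligand of NKG2D, by 0.53 on the log2 scale. *AZGP1*, a secreted class I-like protein that binds no light chain, fell from 90.5 ± 6.61 to 10.6 ± 0.717 CPM (-3.04). Of 12 class II genes 4 had a row, of which *HLA-DQB1* (0.62) and *HLA-DMB* (0.45) rose and *HLA-DMA* fell (-1.01). The remaining gene, *HLA-DPA1*, averaged 0.492 CPM with R1881 (5 to 13 reads per library) and 1.01 CPM with enzalutamide, so that it met the 0.5 CPM filter only through the group where it is high, and its difference is given as these values alone.

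**Figure D4:**
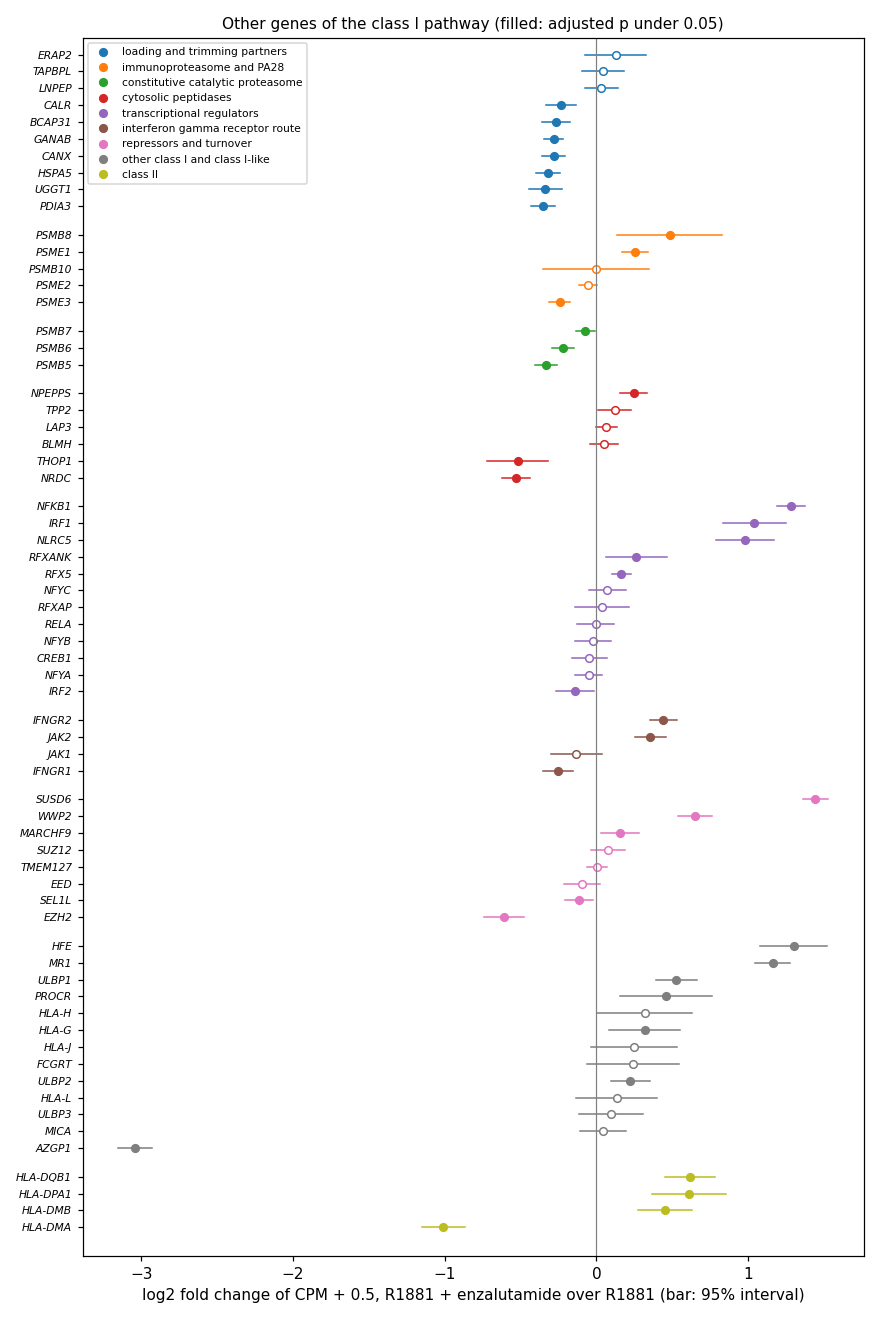
Log2 fold change of CPM + 0.5, R1881 + enzalutamide over R1881, of 65 of the 67 pathway genes tested, class II genes among them. Genes are coloured by list, with 95% intervals as bars and filled points for an adjusted p under 0.05. The 7 called loading and trimming partners lie between -0.35 and -0.23, while NFKB1, IRF1, NLRC5, SUSD6, HFE and MR1 lie between 0.98 and 1.44 and AZGP1 at -3.04. HLA-DPA1 is drawn as a filled point, but it met the 0.5 CPM filter only through the group where it is high.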

How the data were processed

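LNCaP cells were grown in charcoal-stripped serum and treated for 22 h. Polyadenylated RNA was made into stranded libraries (TruSeq) and read as single 50-base reads. Per the labels, the submitters' processing notes name bcl2fastq 2.17, STAR and featureCounts of Subread, with GRCh38. The annotation, strand setting, treatment of reads with several placements, gene filter and scaling were not given in the sources used here. Values per gene in the deposited file were scaled by the authors to library size and are called CPM here (unit: signal, relative to a library total that is not stated). Divided by the value of 1 read, 100% of them were whole within 0.01, so reads were recovered for the count tests tried as alternatives. 0 columns were without a sample.

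From the file, limma 3.58.1 in R 4.3.3 fitted log2(CPM + 0.5) with a mean-variance trend and treatment as the only term, for genes averaging 0.5 CPM or more, with Benjamini-Hochberg adjustment. Fold changes are on that scale and understate the change of low genes. Single genes and ratios within a library also had two-sided exact permutation tests, on log2(CPM + 0.5) and on differences of such values. edgeR 4.0.16 and DESeq2 1.42.0 on recovered reads were alternatives. Groups came from the labels. The study's text gives the numbers of replicates per treatment the other way round, and the androgen targets fell in the group of 5. The study's methods call the replicates biological but the labels name no separate cultures, so p-values measure the spread between these libraries, which may be technical. No pair of libraries agreed within sampling noise (lowest chi-square per degree of freedom 1.64 over 55 pairs). Same-numbered libraries did not deviate together (r -0.07 to 0.07 over 5 pairs).

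The members and the lists were chosen with earlier results of these data known. Named genes are all 9 members, up to 3 called genes per direction of each list, the regulators and subunits described, and 4 androgen targets. Some genes of these lists are counted but not reported here by name. Positions are from GENCODE 44 (GRCh38). Promoters are from RefSeq (GRCh38.p14, 250 bases before the start, some of them inside the GENCODE gene), and GC content and lengths are those of canonical transcripts (85% of genes had a GC value).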

Additional observations from a re-analysis of the deposited data

How the results depend on the processing

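Of the results recomputed under other settings, 553 values kept their direction and their side of the threshold or, for counts, stayed within 1.5 times. Of the rest, 13 changed direction, 12 passed only under the other setting, 8 passed only in the main one, and 7 counts moved further. The direction of *HLA-C* was not stable: -0.02 with the replicate block, -0.07 against R1881 libraries 71 to 75, -0.01 without the 6 libraries that follow GC content (an alternative chosen after seeing the data) and -0.04 to 0.03 when single libraries were left out. *TAP2* was at -0.03 without those 6 libraries, and the *PSMB10* to *PSMB7* ratio at -0.05 against libraries 71 to 75. *TAP1* to *TAP2* was at 0.20 (exact permutation p = 0.0397) without the 6 libraries. A 2-fold limit left 1270 genes (714 lower, 556 higher), 0 class I genes higher, and 2 pathway genes lower and 5 higher. The 2 lower genes were *AZGP1* and the class II gene *HLA-DMA*. A mean of at least 5 CPM left 15 pathway genes higher, since fewer genes were tested. *HLA-F* passed with totals set to 1000000 (adjusted p = 0.0248), TMM (0.0489), median-ratio factors (0.0498), edgeR (0.041), the GC trend removed (0.0146) and without the 6 libraries (0.0101), and did not with DESeq2 (0.0549). The cause of these changes was not tested.

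Without single libraries, 10093 to 10864 genes were called (5298 to 5662 lower, 4795 to 5202 higher), 5 to 6 class I genes higher and 1 lower, and 20 to 25 pathway genes higher and 17 to 19 lower. The log2 ratio differences were 1.25 to 1.36 for *HLA-B* to *B2M*, -0.26 to -0.21 for *HLA-C* to *HLA-B*, 0.12 to 0.22 for *TAP1* to *TAP2*, 0.73 to 0.96 for *PSMB8* to *PSMB5* and 0.01 to 0.16 for *PSMB10* to *PSMB7*. The replicate numbers do not pair the libraries (1 of 5 correlated best with its own number). With the replicate block 10043 genes were called in place of 10660, *B2M* was at -1.04, *HLA-F* at 0.27 (limma adjusted p = 0.146), and the ratios were 1.27 for *HLA-B* to *B2M*, -0.24 for *HLA-C* to *HLA-B* and 0.94 for *PSMB8* to *PSMB5*, each with an exact p of 0.0625, the smallest that 5 pairs allow. The ratio of *PSMB9* to *PSMB6* was not computed, since *PSMB9* was not analysed here. Counting error is large for genes of few reads, such as *HLA-F* (15 to 52 per library) and *PSMB8* (4 to 25).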
